A study of Homo sapiens with 8 samples.

Results

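This report describes 6 genes of nuclear bodies in HAP1, a human cell line with a near-haploid genome that was derived from leukemia cells. They are NEAT1 and MALAT1, which encode long nuclear RNAs, and NONO, SFPQ, PSPC1 and RBM14, which encode proteins of the paraspeckle. The genes were chosen by name, not by their values, in a short-read table of 62635 genes besides the ERCC standards, where 5 of the 6 have a row of their own. HAP1 nuclei were extracted with urea and a detergent. The pellet gave the chromatin fraction, RNA that stays bound to chromatin, and the supernatant gave the nucleoplasm fraction. Short-read libraries were made from both fractions of 3 cultures (3 chromatin and 3 nucleoplasm libraries), and 2 long-read libraries were made from chromatin alone. All 8 libraries came from the same line and the labels name no treatment, so between the short-read groups the fraction is the only contrast. The labels name chromatin in one field of every library, so the fractions follow the sample titles.

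Paraspeckles are bodies in the nucleus that assemble on the long isoform of NEAT1. NONO, SFPQ and PSPC1 form one family of RNA-binding proteins that coat this RNA as dimers, and RBM14 is needed to hold the body together. MALAT1, the neighbour of NEAT1 on chromosome 11, is a very abundant RNA of nuclear speckles, bodies that hold splicing factors. MALAT1 and the long isoform of NEAT1 end without an ordinary poly(A) tail. An enzyme, RNase P, cuts them in front of a tRNA-like fold, and the A-rich end that remains pairs with U-rich stretches into a triple helix.

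The sequences at these ends are shown because they set NEAT1 and MALAT1 apart from the protein genes. The 100 bases before the cut are on the + strand of hg38 at chr11:65445441-65445540 for NEAT1 and chr11:65506017-65506116 for MALAT1. The tRNA-like RNAs that follow are menRNA at chr11:65445541-65445598 and mascRNA at chr11:65506117-65506173, as annotated by GENCODE. Capitals mark runs of at least 8 bases that the NEAT1 and MALAT1 windows, or the 2 small RNAs, have in common.
NEAT1 end: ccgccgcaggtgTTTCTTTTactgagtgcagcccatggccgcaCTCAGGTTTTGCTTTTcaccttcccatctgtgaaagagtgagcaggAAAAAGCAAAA
MALAT1 end: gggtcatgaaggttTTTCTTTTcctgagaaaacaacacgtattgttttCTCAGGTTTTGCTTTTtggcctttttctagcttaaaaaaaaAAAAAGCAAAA
menRNA: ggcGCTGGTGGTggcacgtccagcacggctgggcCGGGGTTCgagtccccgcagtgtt
mascRNA: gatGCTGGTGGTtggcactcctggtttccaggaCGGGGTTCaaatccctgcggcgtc
The longest shared run, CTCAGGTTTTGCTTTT, is 16 bases long and lies 41 bases before the NEAT1 end and 36 before the MALAT1 end. On the sense strand, that run was in the last 100 bases of 1 of 54991 genes (0.00182%, the longest GENCODE transcript of each gene). That gene is NEAT1 itself, and the annotated span of MALAT1 ends further on, at base 65508073. The run AAAAAGCAAAA closes both windows and was in the last 100 bases of 30 genes (0.0546%). These matches describe the letters alone.

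The short-read row of NEAT1 stopped at its annotated end, base 65445540, while the row of MALAT1 ran on to base 65506516, past mascRNA. The last 80 bases of that row, chr11:65506437-65506516, hold 2 copies of the poly(A) signal AATAAA, in capitals.
MALAT1 row end: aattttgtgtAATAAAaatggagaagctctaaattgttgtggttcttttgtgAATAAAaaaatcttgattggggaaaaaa
Of the 2 small RNAs, menRNA was at the edge of detection. No short-read row was named after mascRNA, whose span lies inside the MALAT1 row, so its level could not be read. The row of menRNA had 1.16 to 2.20 normalized counts in the 3 chromatin libraries and 0 in the 3 nucleoplasm libraries, and it was under the minimum for a test. At this depth no difference between the fractions could be read from it.

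Not every gene had a short-read row of its own. Rows with an assembled identifier were named after the same-strand gene whose span matched best, at a Jaccard index (shared length over joint length) of at least 0.5. That rule named 4 of the 6 genes: NEAT1 (index 0.993), MALAT1 (0.846), SFPQ (0.799) and PSPC1 (1). The row over NONO reached 0.385, because GENCODE extends the gene far upstream, and 0.975 against the span in RefSeq. It was taken as NONO after its values were seen. RBM14 had no row of its own. Its reads lie in a row that runs through RBM14 and on to RBM4 (chr11:66616626-66668374), which the rule names RBM14-RBM4, and the 2 genes cannot be told apart there. The values called the RBM14-RBM4 row below are those of this merged row.

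Depth and purity were as follows. The short-read libraries held 38895027 to 43804918 recovered reads in chromatin and 75737601 to 79523938 in nucleoplasm. Of 8 mitochondrial genes listed as a sign of RNA from outside the nucleus, 6 had a row, and their summed level was 61165 to 68791 normalized counts in chromatin and 193016 to 223562 in nucleoplasm. Of 8 blood cell markers, 7 had a row, none was tested, and GATA1, MPO, PTPRC and SPI1 were at 0 in all 6 libraries, so the leukemia origin is not visible in them.

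NEAT1 and MALAT1 were both higher in chromatin. NEAT1 stood at 53156, 57568 and 48624 normalized counts (reads per gene divided by the size factor of the library) in the chromatin libraries and at 10870, 10113 and 9130 in the nucleoplasm libraries. Every chromatin library was above every nucleoplasm library. The share of all genes tested with separate groups was not counted, here or for the genes below. The difference was 2.40 on the log2 scale (SE 0.08, 95% interval 2.21 to 2.59), or 5.29-fold, with an adjusted p of 2.35e-08 by limma across all 26066 genes tested. Of those genes 21.2% passed the same call, an adjusted p under 0.05 and over 4-fold higher in chromatin, and 8.47% passed it toward nucleoplasm. Both fractions came from the same cultures, and the values are averages over their cells, so differences between single cells are not seen.

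MALAT1 showed the wider difference. It had 950756, 1039380 and 906999 normalized counts in chromatin and 116415, 111672 and 111719 in nucleoplasm, with no overlap. It rose by 3.09 on the log2 scale in chromatin (SE 0.08, 95% interval 2.91 to 3.27), or 8.51-fold (limma, adjusted p = 1.04e-08). MALAT1 alone took 1.90%, 2.23% and 1.89% of the reads of the chromatin libraries and 0.175%, 0.170% and 0.166% of those of nucleoplasm.

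**Figure D1:**
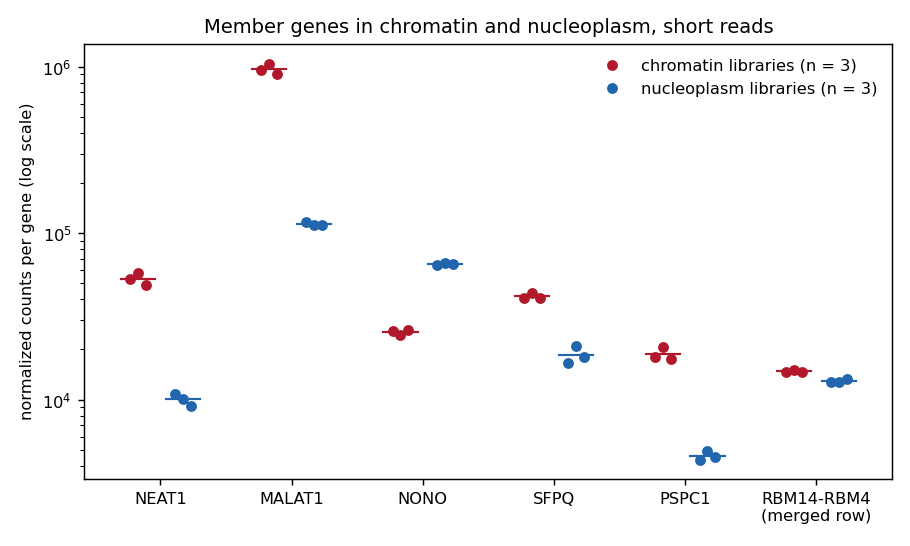
Normalized counts per gene on a log axis for the 6 genes. Points are single libraries (3 chromatin in red, 3 nucleoplasm in blue) and lines are means. Chromatin lies above nucleoplasm for NEAT1, MALAT1, SFPQ, PSPC1 and, by a small step, the RBM14-RBM4 row, while NONO is turned around.

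The 2 RNAs were not shifted equally. Both rows cover RNAs that are mostly a single exon, so their levels are given per kb of row. The NEAT1 row sums the long form and the short forms that lie inside it, so its level per kb is not that of 1 isoform. MALAT1 had 46.5, 46.9 and 48.4 times the normalized counts per kb of NEAT1 in the 3 chromatin libraries and 27.8, 28.7 and 31.8 times in the 3 nucleoplasm libraries. The log2 ratio of NEAT1 to MALAT1 was -4.19 ± 0.03 (SD, n = 3) in chromatin and -3.50 ± 0.10 (SD, n = 3) in nucleoplasm, a difference of -0.69. This ratio is formed within a library and so does not depend on how libraries are scaled. The groups did not overlap, and the exact two-sided permutation test gave p = 0.1, the smallest that 3 against 3 libraries allow (adjusted over 7 pairs of genes, 0.1). The share of other gene pairs with separate groups was not counted.

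Both are lncRNAs, a class that leaned toward chromatin as a whole. The 3447 lncRNA genes tested had a median log2 fold change of 1.53 (quartiles 0.52 and 2.52), and 37.4% of them passed the call over 4-fold. NEAT1 exceeded 72.6% of them and MALAT1 84.0%. The 12494 protein-coding genes tested had a median of -0.39, and 3.94% passed the call.

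The family of NONO, SFPQ and PSPC1 was split. PSPC1 was higher in chromatin, with 17964, 20606 and 17451 normalized counts against 4360, 4922 and 4502 in nucleoplasm. The groups lie far apart. Its log2 fold change was 2.02 (SE 0.07, 95% interval 1.85 to 2.19, limma adjusted p = 3.18e-08). The 4-fold line of 2 lies inside that interval, and the value fell to 1.95 without chromatin replicate 2 and to 1.98 without nucleoplasm replicate 1. Among the protein-coding genes tested, 96.2% had a lower log2 fold change than PSPC1.

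SFPQ, a splicing factor as well as a paraspeckle protein, was higher in chromatin by a smaller step. It had 40811, 43859 and 40759 normalized counts in chromatin and 16673, 20960 and 18087 in nucleoplasm, with no overlap. The log2 fold change was 1.18 (SE 0.08, 95% interval 0.98 to 1.37, limma adjusted p = 1.53e-06), or 2.26-fold. It passed the test but not the 4-fold line.

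NONO, the usual partner of SFPQ, went the other way. It had 25710, 24556 and 26245 normalized counts in chromatin and 64294, 65705 and 65102 in nucleoplasm. Each nucleoplasm library was above each chromatin library. The log2 fold change was -1.35 (SE 0.05, 95% interval -1.46 to -1.24, limma adjusted p = 2.89e-08), which is 2.55-fold higher in nucleoplasm. The mitochondrial genes were also higher in nucleoplasm, as given above, and their part in this result was not tested.

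The RBM14-RBM4 row differed little between the fractions. Its values were 14655, 15029 and 14685 normalized counts in chromatin and 12797, 12694 and 13339 in nucleoplasm. They did not overlap, and the log2 fold change was 0.19 (SE 0.04, 95% interval 0.09 to 0.29, limma adjusted p = 0.00256), or 1.14-fold. RBM14 and RBM4 could differ from each other within that sum.

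Of the 5 genes with a row of their own, 4 were higher in chromatin at an adjusted p under 0.05 and 1 in nucleoplasm, against 44.2% and 45.2% of the genes tested, and the merged RBM14-RBM4 row was higher in chromatin too. NEAT1, MALAT1 and PSPC1, 3 of the 6 rows, passed the call over 4-fold toward chromatin, against 21.2% of the genes tested. With equal ERCC totals 0 of the 6 passed it, and 2832 of all genes did, a count over genes filtered anew on that scale. Over the 6 rows the median log2 fold change was 1.60, beside -0.02 over all genes tested. Since most genes tested passed at any fold in one direction or the other, that call by itself says little of the 6. The same holds for groups that do not overlap.

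The order of the 4 protein genes can be read from ratios within a library, whatever the scaling. The log2 ratio of NONO to PSPC1 was 0.45 ± 0.18 (SD, n = 3) in chromatin and 3.83 ± 0.08 (SD, n = 3) in nucleoplasm, a difference of -3.37 and the widest of the 6 pairs. That of NONO to SFPQ was -0.71 ± 0.11 in chromatin and 1.81 ± 0.15 in nucleoplasm. SFPQ to PSPC1 differed by -0.84, the smallest of the 6 in size. All 6 pairs had groups that did not overlap, and each exact two-sided permutation test gave its smallest possible p of 0.1, so none can pass 0.05 in this design. How many other pairs of genes separate was not counted. With 44.2% of genes tested higher in chromatin and 45.2% in nucleoplasm, separate groups alone say little of these pairs.

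How the libraries are put on one scale changed the direction for some of the genes. The ERCC standards, 92 synthetic RNAs added in equal volume to each fraction, took 94580 to 122151 normalized counts in chromatin and 37409 to 49777 in nucleoplasm. Scaling to equal ERCC totals moved the median log2 fold change of all genes from -0.02 to -1.41, and scaling to equal totals of reads moved it to 0.47. The filter for testing was applied anew on each scale. Counts of all genes on these scales are therefore totals, not shares of the genes tested on the deposited scale. On the ERCC scale NEAT1 remained higher in chromatin at 1.08 (limma adjusted p = 5.02e-08), as did MALAT1 at 1.77 (1.73e-20) and PSPC1 at 0.70 (0.000554), and none of the 3 passed 4-fold. SFPQ turned to -0.15 (adjusted p = 0.469) and the RBM14-RBM4 row to -1.13 (1.44e-08). NONO moved to -2.67. Relative to the median of all genes, each value moved by less than 0.1 between these scales, and NEAT1 was at 2.42 on the deposited scale, 2.39 with equal totals and 2.49 on the ERCC scale.

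**Figure D2:**
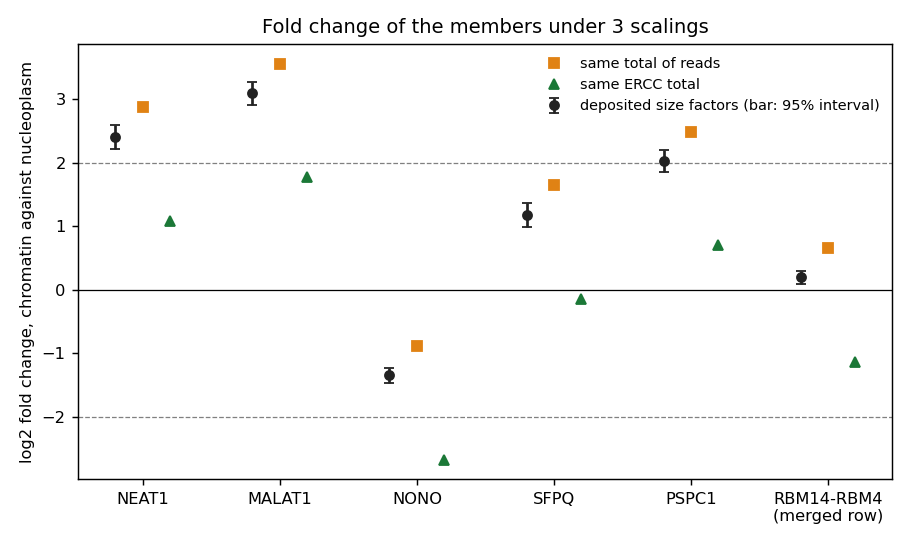
Log2 fold change of chromatin against nucleoplasm for the 6 genes. Black points with 95% intervals use the deposited size factors, orange squares equal totals of reads and green triangles equal ERCC totals. Dashed lines mark 4-fold. SFPQ and the RBM14-RBM4 row fall below 0 on the ERCC scale, while NEAT1, MALAT1 and PSPC1 stay above it.

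Genes of other proteins of the paraspeckle were looked at in 2 lists. The 5 other proteins needed to form paraspeckles were all higher in nucleoplasm on the deposited scale, a call that 45.2% of all genes tested passed, and their median log2 fold change of -0.41 was close to the -0.39 of protein-coding genes. HNRNPK, which acts on the choice of the NEAT1 end, had the widest difference at -1.47 (15420, 13895 and 16109 normalized counts in chromatin against 41863, 40454 and 43103). The chromatin remodeler SMARCA4 was at -0.41, DAZAP1 at -0.18 and HNRNPH3 at -0.12 (limma adjusted p from 7.08e-08 to 0.0298). With equal totals of reads the balance changed, and 2 of the 5 were higher in chromatin and 1 in nucleoplasm, beside 14463 and 8862 of all genes. The median of the 5 was then 0.05, beside 0.47 over all genes.

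Of 30 further proteins found in paraspeckles, 24 had a tested row. Of these, 12 were higher in chromatin and 11 in nucleoplasm, against 44.2% and 45.2% of all genes tested. Their median log2 fold change was 0.11. None was over 4-fold higher in chromatin, which 3.94% of protein-coding genes were, and none was over 4-fold higher in nucleoplasm. The highest were the splicing regulator SRSF10 at 1.26, FIGN at 1.14 and PCED1A at 1.01. The lowest were HNRNPF at -1.88, HNRNPA1 at -1.53 and NUDT21, a subunit of a poly(A) site factor, at -1.32. CPSF6, the partner of NUDT21 in that factor, went the other way at 0.88, and is named here after its value was seen. On the ERCC scale 0 of the 24 were higher in chromatin and 20 in nucleoplasm, beside 5410 and 17118 of all genes. With equal totals 17 and 6 of the 24 were, beside 14463 and 8862 of all genes. The median of the 24 was -1.21 on the ERCC scale and 0.58 with equal totals, beside -1.41 and 0.47 over all genes.

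Among 12 nuclear speckle genes, the body where MALAT1 RNA sits, 10 had a tested row. Of these, 5 were higher in chromatin and 3 in nucleoplasm, against 44.2% and 45.2% of all genes tested, and their median was 0.23. LUC7L3, a factor of splice site choice, was the only one over 4-fold, at 2.72, with 24136, 25091 and 25081 normalized counts in chromatin and 3677, 3778 and 3790 in nucleoplasm. It was followed by PNN at 1.49 and SRRM1 at 0.46. RNPS1 was lowest at -1.41, before SRSF3 at -0.94 and THRAP3 at -0.85. On the ERCC scale 1 was higher in chromatin and 8 in nucleoplasm, beside 5410 and 17118 of all genes. The median of the 10 was then -1.09, beside -1.41 over all genes.

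The genes that make and protect the tRNA-like ends were mostly higher in nucleoplasm. Of 13, among them the protein subunits of RNase P, 11 had a tested row, 1 was higher in chromatin and 9 in nucleoplasm, against 44.2% and 45.2% of all genes tested. Their median was -0.71, beside -0.39 over protein-coding genes. RPP30, a subunit of RNase P, was the 1 that was higher in chromatin, at 0.93. POP7, another subunit, was lowest at -1.87, then RPP40, with 282, 287 and 254 normalized counts in chromatin against 505, 622 and 527, and ELAC2, which trims the other end of tRNA-like RNAs, at -0.86. METTL16, which binds the MALAT1 triple helix, was at -0.71 (limma adjusted p = 2.27e-06, named after its value was seen). The RNA subunit of RNase P, RPPH1, had no row under the naming rule. With equal totals of reads 3 were higher in chromatin and 7 in nucleoplasm, beside 14463 and 8862 of all genes. The median of the 11 was then -0.25, beside 0.47 over all genes.

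**Figure D3:**
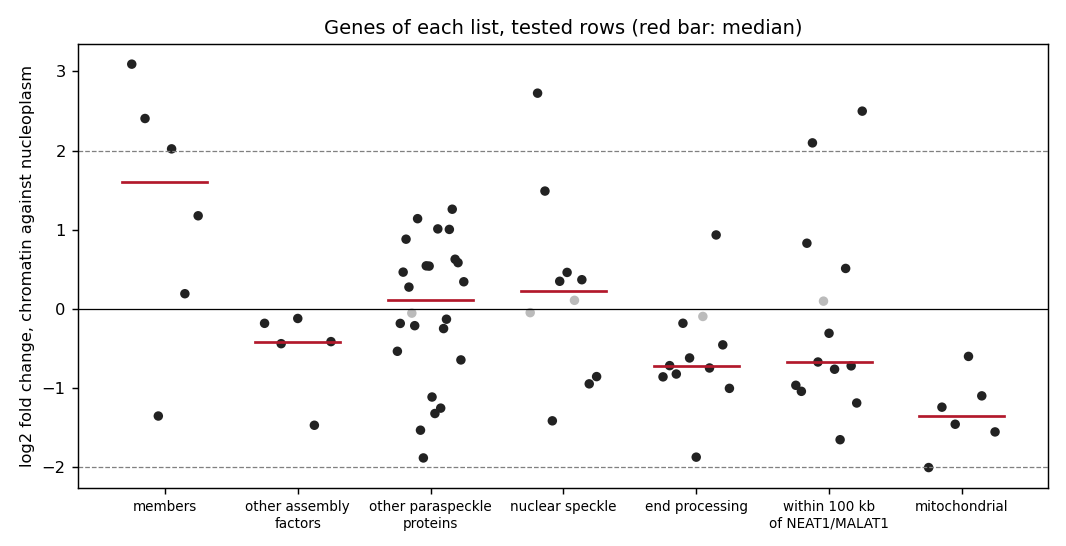
Log2 fold change of chromatin against nucleoplasm on the deposited scale for every tested gene of each list. Black points passed an adjusted p of 0.05, grey points did not, red bars are list medians and dashed lines mark 4-fold. NEAT1, MALAT1 and PSPC1 lie above the upper dashed line, where no gene of the other paraspeckle, assembly and end processing lists lies.

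The genes around NEAT1 and MALAT1 did not move as one block with them. Within 100 kb of either gene, 13 other annotated genes had a tested row, with a median of -0.67. Of the 13, 4 were higher in chromatin and 8 in nucleoplasm, against 44.2% and 45.2% of all genes tested. FRMD8, which precedes NEAT1, was at 0.10 and did not pass the test (limma adjusted p = 0.0752). Another 2 neighbours, both noncoding, were over 4-fold higher in chromatin, at low levels. ENSG00000289883 had 140, 115 and 135 normalized counts against 21.1, 37.0 and 32.9, which is 4.28-fold on the log2(normalized count + 1) scale. ZNRD2-DT had 68.7, 40.8 and 157 against 14.9, 14.6 and 9.29, a log2 fold change of 2.50 with the widest spread of the 13.

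Other neighbours were smaller in effect. ENSG00000285816 was at 0.83 and SLC25A45 at 0.51, both higher in chromatin. LTBP3 was at -0.31, FAUP4 at -0.67, TIGD3 at -0.72, MAP3K11 at -0.76, DPF2 at -0.96, EHBP1L1 at -1.04 and ZNRD2 at -1.19, all higher in nucleoplasm. On the ERCC scale 2 of the 13 were higher in chromatin and 11 in nucleoplasm, beside 5410 and 17118 of all genes. The median of the 13 was then -1.97, beside -1.41 over all genes.

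The genes most like NEAT1 and MALAT1 in pattern were searched among the 8978 tested genes whose mean reached 1000 normalized counts, by the distance between their log2 values over the 6 libraries after centring each gene on its own mean. Closest to MALAT1 was NKTR at a distance of 0.08 (log2 fold change 3.07). ENSG00000266302, NPIPB5, RHOXF1 and ZNF891 followed at 0.12 to 0.18. Closest to NEAT1 was an unnamed row at 0.13 (2.40), followed by ZNF519, EMSY, FAM13B and RIMKLB at 0.15 to 0.17. All 9 of the named ones are annotated as protein-coding. NPIPB5 belongs to a family of near-identical copies, so its count is uncertain.

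In long reads of the chromatin fraction, the same 6 genes were measured in TPM, a share of all transcripts after division by length. The paper reports a strong 3′-end bias in long-read coverage, so an order of genes of unlike length by TPM is approximate. With 2 libraries of 1 group there is no test, and the table holds no depth. Summed over the transcripts given to each gene, MALAT1 had 2908 and 1715 TPM in the 2 libraries. SFPQ had 355 and 88.9 TPM and NONO 171 and 230. NEAT1 had 58.9 and 50.7 TPM, PSPC1 38.3 and 27.6, and RBM14 2.82 and 5.89. The ranges of SFPQ and NONO overlap, and with this choice of transcripts the other neighbours in the order do not. The order holds for the strand of each gene alone. For NEAT1 another 106 and 68.4 TPM lay on the other strand, as described below for all 6 genes. With transcripts of at least 1 TPM in both libraries NONO had 21.2 and 124 TPM, which spans NEAT1, and over all transcripts in its span PSPC1 had 45.4 and 50.8, which overlaps NEAT1. By the mean of the 2 libraries, MALAT1 stood at 2311 TPM and NEAT1 at 54.8.

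All of the NEAT1 signal on its own strand was given to the long form. ENST00000501122.2, which spans 22743 bases (chr11:65422798-65445540) and scaffolds the paraspeckle, had 58.9 and 50.7 TPM. The other 8 NEAT1 transcripts in the table, which include the short polyadenylated forms, were listed at 0 in both libraries. The table gives 1 estimate per transcript, and the short forms lie inside the long one, so a listed 0 is not a measured absence. Poly(A) tails were added to the RNA by an enzyme before library preparation, so a natural tail was not required for priming.

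MALAT1 was likewise carried by 1 transcript. ENST00000534336.1 had 2900 and 1713 TPM, and the next, ENST00000619449.2, had 7.82 and 0.68. ENST00000618132.1 was at 0.14 and 0.58. The mascRNA transcript was listed at 0.000281 and 6.2e-05 TPM.

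The isoforms of the protein genes were less steady between the 2 libraries. For NONO, ENST00000373856.7 had 145 TPM in library 1 and was listed at 0 in library 2, while ENST00000535149.5 was listed at 0 in library 1 and had 105 in library 2. The transcripts above 0 in both were ENST00000490044.5, at 17.3 and 76.7 TPM, and ENST00000486613.6, at 3.97 and 47.7. The estimates thus moved between overlapping NONO models while the sum changed from 171 to 230.

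SFPQ fell in sum from 355 to 88.9 TPM, and each of its transcripts was lower in library 2. The transcript ENST00000357214.6 had 161 and 53.0 TPM. ENST00000468598.5, which lies at the 3′ side of the gene, had 74.6 and 35.4, and ENST00000471991.5 had 32.7 and 0.27. An assembled model, MSTRG.1687.3, had 86.0 TPM in library 1 and was listed at 0 in library 2.

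PSPC1 was divided among many models. The assembled MSTRG.19577.10 had 11.2 and 6.97 TPM and starts (leftmost base) 43007 bases inside the annotated left end, which for this gene on the - strand is its 3′ side. MSTRG.19577.7 had 17.99 TPM in library 1, the highest there, and was listed at 0 in library 2. ENST00000338910.9 had 1.69 and 12.3 TPM, and ENST00000635251.1, a short transcript at the 3′ side, had 3.34 and 7.09. RBM14 had 1 model, MSTRG.13057.1, at 2.82 and 5.89 TPM. The read-through model RBM14-RBM4 was several times higher, with 20.9 and 21.6 TPM. RBM14 was thus joined to RBM4 in both tables.

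The tables also differed in strand. In the long-read table each of the 6 genes had transcripts on the other strand, which held 28.5% to 77.9% of the TPM inside the gene. For MALAT1, 1 assembled transcript on the - strand, MSTRG.12938.1, had 2999.6 and 1654 TPM beside 2908 and 1715 on the + strand, so 50.8% and 49.1% of the signal was on the opposite strand. Its span matched TALAM1, an annotated antisense RNA of MALAT1 (Jaccard index 0.806). In the stranded short reads the opposite strand of MALAT1 had 15.1, 22.8 and 19.8 normalized counts in chromatin and 3.51, 5.17 and 9.29 in nucleoplasm, which is 0.00159% to 0.00832% of the total there.

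NEAT1 showed the same contrast without an annotated antisense gene. The - strand transcript MSTRG.12929.1 has its leftmost base, the 3′ side on that strand, at 65428261, inside the gene. It had 106 and 68.4 TPM, which is 64.3% and 57.4% of the signal. No short-read row lay on that strand in any library. For NONO the opposite strand held 61.5% and 49.5% of long-read TPM and for SFPQ 28.5% and 36.7%. For PSPC1 it held 60.3% and 38.8%, and for RBM14 77.9% and 62.2%. The RBM14 share leaves out the read-through model, which lies 44.6% inside the gene and had 20.9 and 21.6 TPM. With that model RBM14 had 23.8 and 27.5 TPM on its own strand, above the 9.97 and 9.71 on the other. In short reads NONO, SFPQ and RBM14 had no row on the opposite strand, and PSPC1 had 17.5, 25.2 and 20.9 normalized counts in chromatin and 0 in nucleoplasm.

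**Figure D4:**
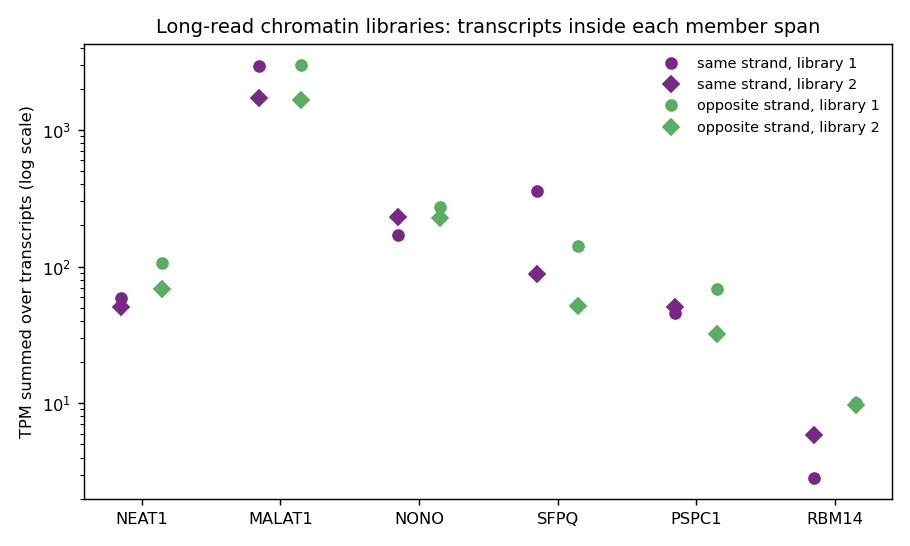
Long-read TPM on a log axis, summed over transcripts that lie at least by 50% inside each gene, on the strand of the gene (purple) and on the other strand (green), for library 1 (circles) and library 2 (diamonds). The levels of both strands are close for MALAT1, and the opposite strand is higher in both libraries for NEAT1 and RBM14, lower in both for SFPQ, and on different sides in the 2 libraries for NONO and PSPC1. For RBM14 the read-through model, 44.6% inside the gene, is not counted.

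This was not particular to the 6 genes. The comparison took 3699 genes with a mean of at least 10 TPM on their own strand and no annotated gene on the other. Their median share of long-read TPM on the opposite strand was 25.1% in library 1 and 26.5% in library 2. Of them, 50.1% and 53.1% had a share of at least 25%, each library counted by itself. All 6 genes exceeded 25% in both libraries, but not all of them meet these limits. MALAT1, NONO and PSPC1 overlap an annotated gene on the other strand, and RBM14 had a mean of 4.36 TPM. In short reads, 3227 genes had no annotated gene on the other strand and a mean of at least 1000 normalized counts on their own. Their median share was 0% in each library, and 3 to 5 of them reached 25%. The long-read libraries were made from double-stranded cDNA without strand marks, and whether the deposited table followed or preceded the strand assignment described in the methods was not given.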

How the data were processed

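HAP1 chromatin and nucleoplasm were measured in 6 stranded short-read libraries (3 cultures, 50 bp single-end reads), and chromatin in 2 direct cDNA long-read libraries. For the first, the authors mapped reads to hg38 (HISAT2 2.1.0), assembled and counted with StringTie under GENCODE release 35, and deposited a normalized signal, the count of each gene over the DESeq2 size factor of its library. For the second, the RNA was first given poly(A) tails by an enzyme, for a poly(T) primer. Its reads were mapped with minimap2 and assembled with StringTie, and the authors deposited TPM per transcript. All value columns belonged to a library.

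Dividing each short-read value by the lowest nonzero value of its library gave whole reads for 100% of values (tolerance 0.001). These reads come from coverage and are estimates. Groups were taken from the sample titles. Fold changes and p-values come from limma 3.58.1 in R 4.3.3 (trended variance, no covariates, Benjamini-Hochberg adjustment), run on log2(normalized count + 1), a scale on which changes of low genes come out too small. A gene was tested if 3 or more libraries reached 10 normalized counts and its span exceeded 200 bases, which 26066 genes did, the ERCC standards being left out. On simulated counts for these genes, 200 of 200 genes changed by 3 on the log2 scale were recovered. The simulated spread was fixed and low, and smaller changes, such as those of SFPQ and the RBM14-RBM4 row, were not simulated. The alternatives were tests on recovered reads with edgeR 4.0.16 (5675 genes over 4-fold higher in chromatin and 2167 in nucleoplasm) or DESeq2 1.42.0, other pseudocounts, filters and scalings, the replicate number as a term, sums of overlapping rows, and each library left out in turn.

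Names followed GENCODE release 44 (ENSG and ENST by stable identifier, MSTRG by span). Listed starts of long-read transcripts equalled the annotation for 100% of 215345 shared identifiers, but listed ends for 51.4%, the others lying further right. Ends are therefore given from GENCODE, and right ends of assembled long-read transcripts are not given. Proteins were not analysed here.

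The genes, the lists and the tests were chosen with earlier results of these data known. The genes named besides the 6 are those within 100 kb of NEAT1 or MALAT1, the 3 highest and 3 lowest of each list past the test (lists of up to 5 in full), the 3 highest isoforms above 0 in both libraries, and the 5 genes closest in pattern. Genes and transcripts named outside this rule are marked as such or given to account for a sum. Some genes that the rule would name are not reported here.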

Additional observations from a re-analysis of the deposited data

How the results depend on the processing

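The 6 log2 fold changes kept their direction and an adjusted p under 0.05 in every alternative but the ERCC scale, where SFPQ was -0.15 (adjusted p = 0.469) and the RBM14-RBM4 row -1.13, and where 0 of the 6 rows were over 4-fold higher in chromatin. Without 1 library, 2 to 3 were. Of all genes, 7487 were higher in chromatin when the mean had to reach 50 normalized counts (fewer genes tested) and 5410 on the ERCC scale, against 11511. Over 4-fold higher in chromatin were 2957 and 2832, against 5531. Over 4-fold higher in nucleoplasm were 983 with equal totals and 9107 on the ERCC scale, against 2208. The cause of the scale dependence was not tested. Same-numbered libraries correlated at 0.05 to 0.09 in their deviations, under the 0.1 set for pairing, although each correlated best with its own number. With the replicate block, 5540 and 2218 genes were over 4-fold, PSPC1 stayed at 2.02, and no call of the 6 changed. Ratios between genes kept their sign throughout.

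In long reads, mean TPM of NONO was 72.8 with transcripts of at least 1 TPM in both libraries (200.2 otherwise). PSPC1 was at 48.1 over all transcripts in its span, 14.9 at a Jaccard index of 0.8 and 24.0 with at least 1 TPM, against 33.0. RBM14 was at 25.6 over its span, which adds the read-through model, against 4.36. TPM gives no depth, so intervals for isoforms could not be made.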
